A study of Homo sapiens with 6 samples.

Results

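Long stretches of H3K27me3 that were called in 1 condition and missed entirely in the other are described here for H1299, a widely used human cell line derived from a non-small cell lung carcinoma. The study grew the cells without treatment (control) or with 5 mM metformin, an antidiabetic biguanide that inhibits mitochondrial respiration, and mapped H3K27me3 and H3K4me3 by chromatin immunoprecipitation and sequencing. The samples comprised 1 library per mark and condition, and the 4 deposited peak lists of those libraries were analysed. The intervals were chosen by the coordinates of the H3K27me3 peak calls themselves: a length of 2000 bp or more, and not 1 bp of overlap with the other condition's H3K27me3 list. These members numbered 1388 of 171531 H3K27me3 intervals. In the control list 552 of 9361 long intervals met the rule, or 5.90%, and in the metformin list 836 of 10689, or 7.82%. Both counts were made by the rule, so they describe the lists and test nothing. With 1 library per mark and condition there is no replicate error, no test between conditions and no p-value.

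H3K27me3 is laid down by Polycomb repressive complex PRC2, whose enzyme EZH2 or EZH1 trimethylates the histone and whose EED subunit binds the product, so that the mark can spread from a nucleation site over long silent domains. H3K4me3 is deposited mainly at promoters by the SET1 and MLL complexes and opposes PRC2 on the same histone tail. Promoters that carry both marks, called bivalent, are typical of silenced developmental genes, and H3K27me3 away from promoters forms wide, shallow blankets over inactive chromatin. In cancer cells Polycomb domains are often redrawn.

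The single-list intervals were shorter and had lower values than the long H3K27me3 intervals that the other list overlapped by any amount, called shared here. The shorter width is in part set by the rule, because a longer interval is more easily overlapped. Control-only intervals had a median width of 2282.5 bp and metformin-only intervals one of 2333.5 bp, against 2960 and 3056 bp for the long intervals that the other list overlapped. The middle range ran from 2121 to 2618 bp for control-only intervals and from 2137 to 2704 bp for metformin-only intervals, and the longest measured 4855 and 6730 bp. The deposited value of each interval, read as a −log10 q averaged over its length, had a median of 1.58 for control-only and 1.57 for metformin-only intervals. The shared long intervals stood at 1.74 in both lists. Values were not compared at equal width, and how far the choice of intervals without a partner sets them was not tested. Values of single-list members ran from 1.15 to 2.78 in control and from 1.14 to 2.67 after metformin. Over all intervals of any length the medians were 1.512 and 1.505, and the lists began at 1.01 and 1.00.

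The share of long intervals found in a single list dropped with width in both directions. A wider interval offers more bases to overlap, so such a drop is in part built into the rule. At 2000 to 2249 bp the share was 14.4% of control intervals (249 of 1728, exact 95% interval 12.8 to 16.2) and 18.6% of metformin intervals (338 of 1813, 16.9 to 20.5). At 3000 to 3999 bp it was 2.61% (54 of 2070) and 4.54% (107 of 2356). From 4000 bp upwards 6 of 2299 control and 10 of 2853 metformin intervals were left, 0.261% and 0.351%. The metformin share was the higher in each of the 5 width classes. The 95% intervals give counting error within 1 library per list. They are no test between conditions, since the rule itself made these counts. By value the pattern was alike: 16.9% of control and 21.4% of metformin long intervals under 1.4 had no partner, and 2.77% and 3.01% of those at 2 or more. Width and value were not separated in these classes.

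**Figure D1:**
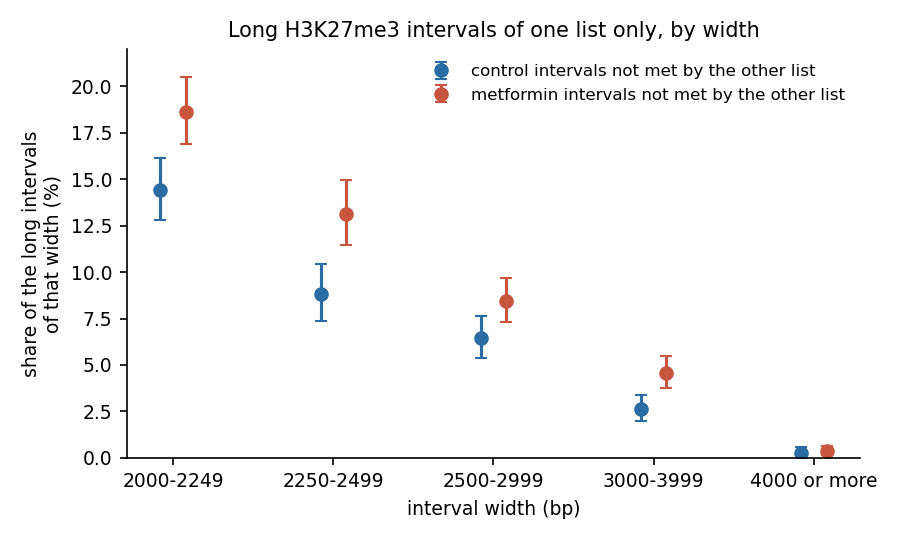
Share (%) of H3K27me3 intervals of each width (bp) that the other condition's list did not overlap, for control (blue) and metformin (red) intervals; bars are exact 95% intervals for counting error. Both series drop from 14.4% and 18.6% at 2000 to 2249 bp to under 1% from 4000 bp upwards, with metformin the higher in each class. The rule in part sets this drop, because a wider interval offers more bases to overlap.

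In total the metformin-only intervals covered 2.08 Mb and the control-only intervals 1.34 Mb, which is 2.23% and 1.57% of their lists. The difference of 0.735 Mb is 9.46% of the 7.77 Mb by which the metformin list covered more than the control list. Metformin intervals were longer in general, and this moved with the count. When the 9361 longest intervals of each list were taken, which set the shortest metformin interval at 2178 bp, 552 control and 586 metformin intervals had no partner. The ratio of metformin-only to control-only numbers was then 1.06 in place of 1.51.

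The rule's limits cut through a continuum. The shortest members were 2000 bp long in both lists, and the longest single-list intervals left out were 1999 bp long. Between 1900 and 1999 bp, 17.5% of the control list and 19.7% of the metformin list had no partner, and between 2000 and 2099 bp 14.1% and 19.2% did. The closest control-only member lay 1 bp from a metformin interval, and 2 metformin-only members touched a control interval without overlap. On the other side of the limit, the smallest overlaps that made a long interval shared were 4 bp in control and 1 bp after metformin. Among the shared long intervals, 311 in control (3.53%) and 473 after metformin (4.80%) were overlapped over less than 10% of their length. Over less than 50% of their length, 3302 of 8809 in control and 4390 of 9853 after metformin were overlapped. Shared thus means an overlap of at least 1 bp, often a partial one.

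The longest member of all was metformin-only, chr8:143019568-143026297, with 6730 bp at a value of 1.81. A control interval of 781 bp ended 346 bp to its left, and the next on the right began 3117 bp away. In the 50 kb on each side the control list covered 34.4 kb and the metformin list 30.4 kb, so this stretch was a gap of the control list in a region that the same list covered densely. The next metformin-only intervals were chr5:10783720-10788462 (4743 bp), chr8:125236942-125241470 (4529 bp), chr1:38505414-38509924 (4511 bp) and chr15:53171291-53175607 (4317 bp). Their nearest control intervals lay 1442, 6159, 1392 and 327 bp away. The interval on chromosome 1 had no control interval for 251245 bp on its left and one at 1392 bp on its right. It lay 520 bp from a metformin H3K4me3 interval, and 232 bp of it were under control H3K4me3.

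Among control-only intervals the longest was chr5:169854468-169859322, with 4855 bp at a value of 1.77. Metformin intervals flanked it at 391 and 4203 bp, and the metformin list covered 33.1 kb of its flanks against 25.3 kb for the control list. It was followed by chr4:5337192-5341537 (4346 bp), chr7:142011089-142015296 (4208 bp), chr6:46034884-46038966 (4083 bp) and chr10:99707949-99711994 (4046 bp). Metformin intervals lay 2107, 780, 82 and 430 bp away from these. All 5 had no H3K4me3 within 50 kb in either condition. Of the 5 longest metformin-only intervals, the one on chromosome 1 had H3K4me3 within 5 kb.

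Most members had the other list close by. To the nearest interval of the other list, control-only members had a median distance of 841.5 bp and metformin-only members one of 991.5 bp. Within 1 kb lay 303 of 552 (54.9%) and 420 of 836 (50.2%), and within 5 kb 509 (92.2%) and 747 (89.4%). On both sides within 5 kb the other list was present for 317 control-only (57.4%) and 437 metformin-only intervals (52.3%). Single-list intervals under 2000 bp were farther from the other list, with medians of 1602 and 1738 bp. Of these, 37.7% in control and 35.6% after metformin had the other list within 1 kb. Distances over the members are a description, since the rule set them to be above an overlap.

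**Figure D2:**
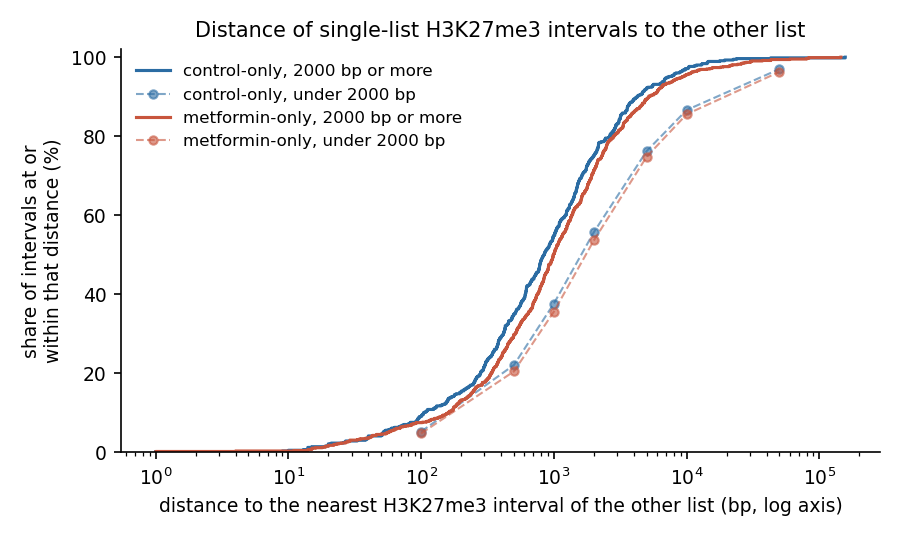
Cumulative share (%) of single-list H3K27me3 intervals against the distance to the nearest interval of the other list (bp, log axis; touching intervals drawn at 1 bp). Lines are the 552 control-only and 836 metformin-only intervals of 2000 bp or more, with medians of 841.5 and 991.5 bp, and dashed points are the single-list intervals under 2000 bp, which reach the same shares at longer distances.

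The nearest H3K27me3 interval of any kind belonged more often to the other list than to the member's own. This held for 369 of 552 control-only (66.8%) and 526 of 836 metformin-only intervals (62.9%). No member had an own-list neighbour closer than 643 bp in control or 670 bp after metformin, a floor that the distance to the other list does not have. The nearest other-list interval had a median width of 704.5 bp beside control-only and 680 bp beside metformin-only members, against 687 and 642 bp over all intervals of the other list. Of these neighbours 48 (8.70%) and 81 (9.69%) reached 2000 bp, against 12.4% and 10.9% of the other list. In 209 cases (37.9%) and 348 cases (41.6%) that neighbour overlapped an interval of the member's own list. The share over all intervals of the other list was 46.3% and 48.3%.

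A small number of members stood alone. More than 10 kb from the other list lay 16 control-only and 37 metformin-only intervals, and more than 50 kb away 1 and 5. The remote control-only interval was chr3:157372217-157374348, 2132 bp long with a value of 1.41. The nearest metformin interval lay 156.6 kb to the left and the metformin list covered 0 kb of its flanks. The control list itself covered 0.215 kb there. Next came chr12:40894055-40896223 (42.9 kb away), chr16:74252158-74254276 (23.8 kb), chr4:18645142-18647174 (22.4 kb) and chr9:104393061-104395144 (19.3 kb).

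The 5 most remote metformin-only intervals were chr15:84782580-84784644 (145.3 kb from the control list), chr15:50404185-50406258 (83.7 kb), chr2:239205450-239208157 (81.7 kb), chr1:163035351-163037620 (79.8 kb) and chr19:42884509-42887337 (59.8 kb). In each the control list covered 0 kb of the flanks. Metformin coverage there was at most 2.77 kb, and it was 0 kb for the first and the last. The interval chr1:163035351-163037620 had the highest value of the 5, at 2.22, and chr2:239205450-239208157 the lowest, at 1.47. The one on chromosome 19 lay 3569 bp from metformin H3K4me3 and 4070 bp from control H3K4me3. Those on chromosomes 15 and 1 had no H3K4me3 within 60 kb in either list.

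Around the members the H3K27me3 lists covered nearly equal amounts of sequence. Of the 100 kb made up by the 50 kb on each side of a control-only interval, the control list covered a median of 15.6 kb and the metformin list 16.2 kb. Around metformin-only intervals the metformin list covered 16.3 kb and the control list 15.4 kb. The own list covered more than the other in 250 of 552 control-only cases (45.3%) and in 516 of 836 metformin-only cases (61.7%). The metformin list is 1.09 times as long overall. Shared long intervals lay in denser surroundings, with medians of 27.6 kb (control list, around control intervals) and 29.0 kb (metformin list, around metformin intervals). The other list covered medians of 30.5 kb around shared control intervals and 27.3 kb around shared metformin intervals. The metformin list thus covered more around shared long intervals of both lists, and the tilt is not particular to the members. Counts of cases like those above are not given for shared intervals. Shorter single-list intervals lay in sparser surroundings, with own-list medians of 9.82 and 10.1 kb.

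Stepping outward from the edge, coverage around control-only intervals was 3.87% by the control list and 15.1% by the metformin list in the first 1 kb. From 1 to 2 kb the control list stood at 21.9% and the metformin list at 21.8%. Around metformin-only intervals the first 1 kb was covered to 3.40% by the metformin list and to 13.1% by the control list, and the next to 23.2% and 20.4%. The first step of the own list covers distances under the smallest own-list gaps given above. At 49 to 50 kb the 4 values lay between 14.9% and 16.9%. From 1 kb outward the lists lay closer together than in the first 1 kb. Beside metformin-only members the metformin list was the higher in nearly all steps, with 23.4% against 19.0% at 5 to 6 kb. Beside control-only members the order changed between steps. There the control and metformin lists covered 22.7% and 20.4% at 2 to 3 kb, and 15.3% and 18.6% at 38 to 39 kb. On the members themselves 1 list covered all and the other nothing, as the rule requires.

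**Figure D3:**
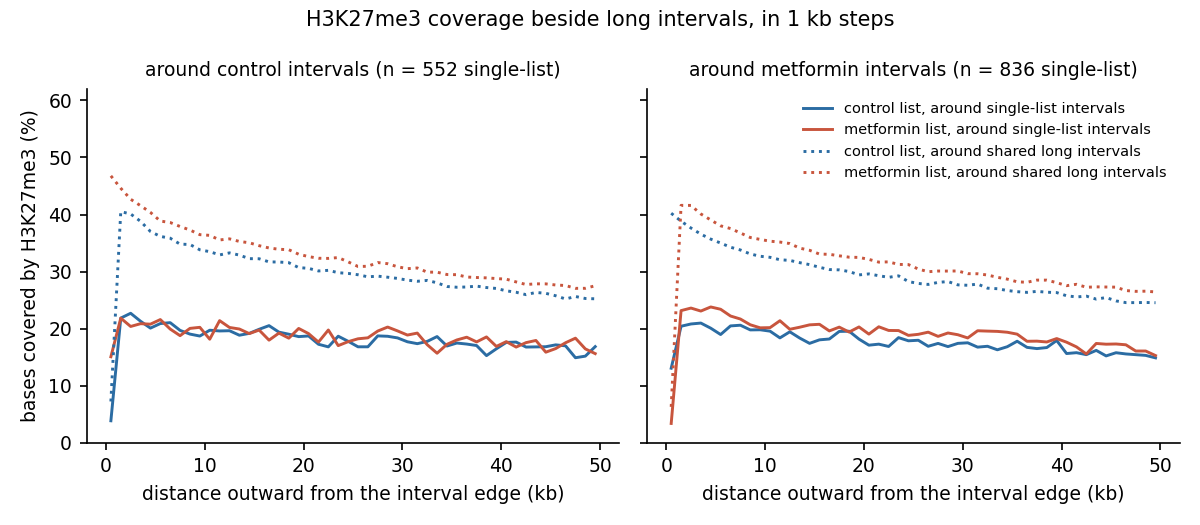
Share of bases (%) covered by the control (blue) and metformin (red) H3K27me3 lists in 1 kb steps from the edge of long intervals outward to 50 kb, around control intervals (left) and metformin intervals (right). Solid lines are the 552 and 836 single-list intervals, where the lists lie apart in the first 1 kb (3.87% and 15.1% around control-only, 3.40% and 13.1% around metformin-only intervals, own list first) and closer together from there on. Dotted lines are the shared long intervals, which lie in denser coverage.

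H3K4me3 was not used to choose the members, and its share lay apart between the directions. H3K4me3 of the same condition lay within 5 kb of 23 of 552 control-only intervals, 4.17% (exact 95% interval 2.66 to 6.19), and of 97 of 836 metformin-only intervals, 11.6% (9.51 to 14.0). Over all long intervals of the lists the shares were 8.90% in control and 12.4% after metformin, and over intervals of any length 6.08% and 7.91%. The control-only share was thus under that of the control list's long intervals, and the metformin-only share was near that of its own list. Shared long intervals stood at 9.20% (8.60 to 9.82) and 12.4% (11.8 to 13.1), and shorter single-list intervals at 4.55% and 7.10%. The median distance to H3K4me3 was 90.0 kb from control-only and 46.7 kb from metformin-only members, against 54.2 and 45.2 kb for shared long intervals.

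The metformin H3K4me3 list is longer than the control list, so the same H3K4me3 list was also held against both directions. Control H3K4me3 lay within 5 kb of 4.17% of control-only and 9.93% (7.99 to 12.2) of metformin-only intervals. Metformin H3K4me3 lay within 5 kb of 4.17% and 11.6%. Over all long intervals, control H3K4me3 lay within 5 kb of 8.90% and 10.8%, and metformin H3K4me3 within 5 kb of 10.0% and 12.4%. With control H3K4me3 held fixed, shared long intervals differed less between the lists, at 9.20% and 10.8%, as did shorter single-list intervals, at 4.55% and 6.11%. With control H3K4me3 for both directions the share was higher among metformin-only members on 18 of 23 chromosomes and lower on 4, and with metformin H3K4me3 it was higher on 17 and lower on 5. Held against H3K4me3 of its own condition, no control-only member had H3K4me3 within 5 kb on 13 chromosomes, and no metformin-only member on 1. These zeros and the tallies over chromosomes rest on small numbers, since 23 control-only members had H3K4me3 within 5 kb with either list. The same tallies are not given for shared or all long intervals, so they are not shown to be particular to the members. The control-only share was the higher on 5 chromosomes, among them chromosome 3 at 13.9% against 8.62%. Also with H3K4me3 of the own condition, members under 2500 bp gave 4.57% (17 of 372) and 10.0% (54 of 538), a setting chosen after seeing the data. The intervals given are for counting error, members of a list come from 1 library, and the difference between conditions could not be tested.

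**Figure D4:**
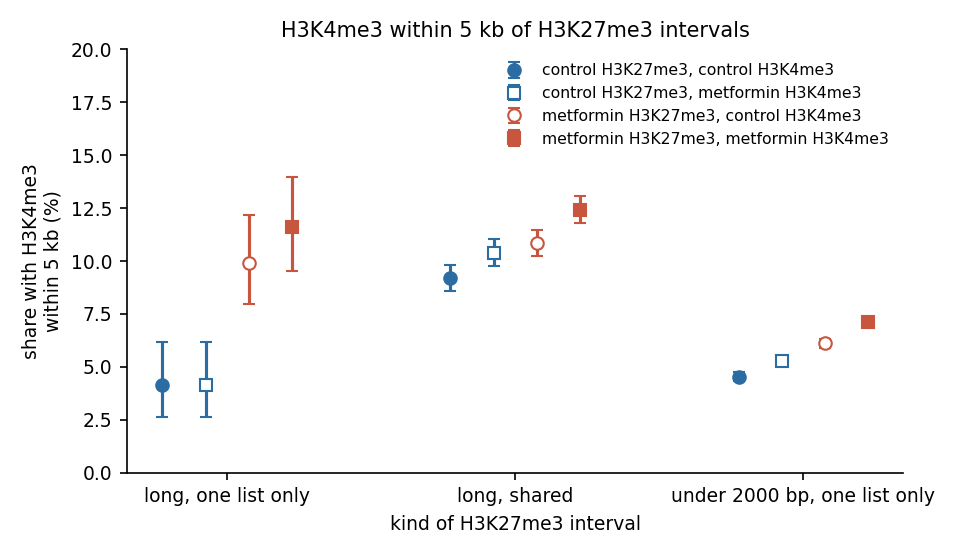
Share (%) of H3K27me3 intervals with an H3K4me3 interval within 5 kb, for control (blue) and metformin (red) H3K27me3 held against the control (circles) and metformin (squares) H3K4me3 lists; filled symbols are the same condition and bars are exact 95% intervals for counting error. Among long intervals of one list only, control-only ones stand at 4.17% with either H3K4me3 list and metformin-only ones at 9.93% and 11.6%.

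Nearby H3K4me3 was mostly present in both conditions. Of the control-only members, 19 had H3K4me3 within 5 kb in both conditions, 4 in control alone, 4 after metformin alone and 525 in neither. Of the metformin-only members, 78 had it in both, 19 after metformin alone, 5 in control alone and 734 in neither. Summed over the members and 5 kb on each side, metformin H3K4me3 covered 177 kb and control H3K4me3 123 kb around metformin-only members, a ratio of 1.44. Around control-only members the sums were 27.3 and 20.5 kb, a ratio of 1.33. Over the whole lists the ratio was 1.12. Around shared long intervals it was 1.415 for metformin and 1.404 for control intervals.

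Members that lay under H3K4me3 itself were few. H3K4me3 of the same condition overlapped 5 of 552 control-only intervals (0.906%, exact 95% interval 0.295 to 2.10) and 29 of 836 metformin-only intervals (3.47%, 2.34 to 4.94). The shares were 3.16% and 5.02% over all long intervals, and 1.36% and 2.22% over intervals of any length. H3K4me3 of the other condition overlapped 5 control-only intervals (0.906%) and 18 metformin-only intervals (2.15%), against 3.87% and 3.88% over all long intervals. Of the 29 metformin-only intervals, 16 were also under control H3K4me3, and in 14 of these the metformin H3K4me3 covered more bases of the member. The other 13 were under H3K4me3 after metformin alone, yet in 12 of them control H3K4me3 lay within 2 kb outside the member. The exception, named after its values were seen, was chr6:33454383-33456573, with 372 bp under metformin H3K4me3 and the nearest control H3K4me3 interval 29435 bp away.

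The 5 metformin-only members with the most bases under H3K4me3 had both marks called on the same stretch after metformin. The interval chr12:34488180-34490890 was under metformin H3K4me3 over all of its 2711 bp and under control H3K4me3 over 2524 bp. At chr18:905231-907300 all 2070 bp were under H3K4me3 in both conditions. At chr8:70744483-70746560 the coverage was 2078 bp, its full length, after metformin and 1387 bp in control. At chr19:18718872-18721314 (2443 bp) it was 2228 bp against 994 bp, and at chr12:57611306-57613722 (2417 bp) 1875 bp against 1019 bp. At these 5 sites H3K4me3 was thus called in control cells as well, and the long H3K27me3 call was in the metformin list alone. The nearest control H3K27me3 interval lay 985, 977, 351, 515 and 1774 bp away.

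Control-only members carried less H3K4me3. The highest was chr6:150285676-150287718, with 1103 of 2043 bp under control H3K4me3 and 1355 bp under metformin H3K4me3. Its nearest metformin H3K27me3 interval lay 39 bp away. At chr14:93894472-93896871 control H3K4me3 covered 680 bp and metformin H3K4me3 362 bp. In the remaining 3, control H3K4me3 covered 143 bp (chr2:130734684-130737372), 73 bp (chr14:92299224-92301995) and 37 bp (chr3:45838324-45840920). Metformin H3K4me3 covered 479, 338 and 0 bp of these. A sixth, chr2:98699521-98701779, chosen after its values were seen, had 212 bp under metformin H3K4me3 and the nearest control H3K4me3 interval 1083 bp away. It is the single control-only member with H3K4me3 on it after metformin alone.

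The highest values among the members did not belong to the longest intervals. In control they were chr2:109605626-109607693 (2.78), chr1:47865548-47867590 (2.66), chr22:25692704-25694872 (2.55), chr17:75758134-75760196 (2.46) and chr13:53642880-53645164 (2.40). After metformin they were chr14:93364388-93366816 (2.67), chr3:41087460-41089841 (2.61), chr2:26537953-26540056 (2.56), chr21:36046784-36048983 (2.48) and chr16:86725409-86727504 (2.41). Widths ran from 2043 to 2429 bp, and most lay under the member medians of 2282.5 bp (control-only) and 2333.5 bp (metformin-only). The first of the control intervals lay 417 bp from a metformin interval of 7273 bp, and the first of the metformin intervals 91 bp from a control interval of 879 bp. The interval on chromosome 21 lay 3627 bp from metformin H3K4me3 and 3398 bp from control H3K4me3, and the other 9 had none within 10 kb.

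Members lay close to one another in few cases, within a list or between lists. Within 1 kb, 2 control-only and 2 metformin-only members had a member of their own list, and 4 of each had a member of the opposite list. The own-list counts are limited by the smallest own-list gaps, 643 bp in control and 670 bp after metformin. The median distance to an opposite member was 311 kb from control-only and 668 kb from metformin-only members, and to a member of the same list 536 and 333 kb. Such distances and counts depend on how many members the list measured to holds, 552 control-only and 836 metformin-only. The same measures are not given for other long intervals, so they show no clustering particular to the members. The 4 opposite pairs at most 1 kb apart were named after their values were seen. On chromosome 2 the control interval chr2:109605626-109607693 (2068 bp) was followed after 476 bp by the metformin interval chr2:109608170-109610556 (2387 bp). The others were chr3:43285098-43287778 with chr3:43288202-43290648, chr4:20665253-20667358 with chr4:20667740-20670031, and chr20:17895114-17897688 with chr20:17898476-17900798. In each pair the control interval came first along the chromosome, at gaps of 423, 381 and 787 bp for the last 3. Within 50 kb, 92 of 552 control-only and 94 of 836 metformin-only members had a member of the opposite list. A member of the same list lay within 50 kb of 60 control-only and 143 metformin-only members. Within 5 kb these same-list counts were 6 and 30, and the opposite-list counts 10 and 10.

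Across the genome the members were scattered. They fell into 409 bins of 1 Mb for control and 563 for metformin, and 300 and 379 of these bins held 1 member each. Members of both kinds occurred in 227 bins. The number of bins that held any long H3K27me3 interval is not given, so these counts only describe the members. The densest control-only bin, 58 to 59 Mb of chromosome 20, held 6 of the 19 long control intervals there and 1 metformin-only member. The 6, from chr20:58121616-58124233 to chr20:58605237-58607312, were 2076 to 3733 bp long and lay 40 to 3057 bp from the metformin list. The densest metformin-only bin, 110 to 111 Mb of chromosome 6, held 7 of 38 long metformin intervals and 0 control-only members. The 7, from chr6:110285001-110287264 to chr6:110746983-110749211, were 2061 to 2741 bp long and lay 330 to 2056 bp from the control list. Neither group had H3K4me3 within 10 kb. Both bins were picked for their counts.

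By chromosome, metformin-only members were the more numerous on 20 of 23 chromosomes. The exceptions were chromosome 18 with 20 control-only and 19 metformin-only members, chromosome 20 with 40 and 30, and chromosome 21 with 8 and 7. The ratio of numbers was highest on chromosome 15, at 3.89, where 9 of 289 long control intervals (3.11%, exact 95% interval 1.43 to 5.83) and 35 of 358 metformin intervals (9.78%, 6.90 to 13.3) had no partner. The numbers themselves lay furthest apart on chromosome 6, at 28 (4.54%) and 70 (9.47%). Chromosome 12 had low shares in both directions, 2.82% and 4.03%. The highest shares were on chromosome X, 12.8% and 27.9%, and on chromosome 13, 13.3% and 19.2%. These rest on 5 of 39 and 12 of 43 intervals on X and on 4 and 5 members on chromosome 13, so their intervals are wide.

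**Figure D5:**
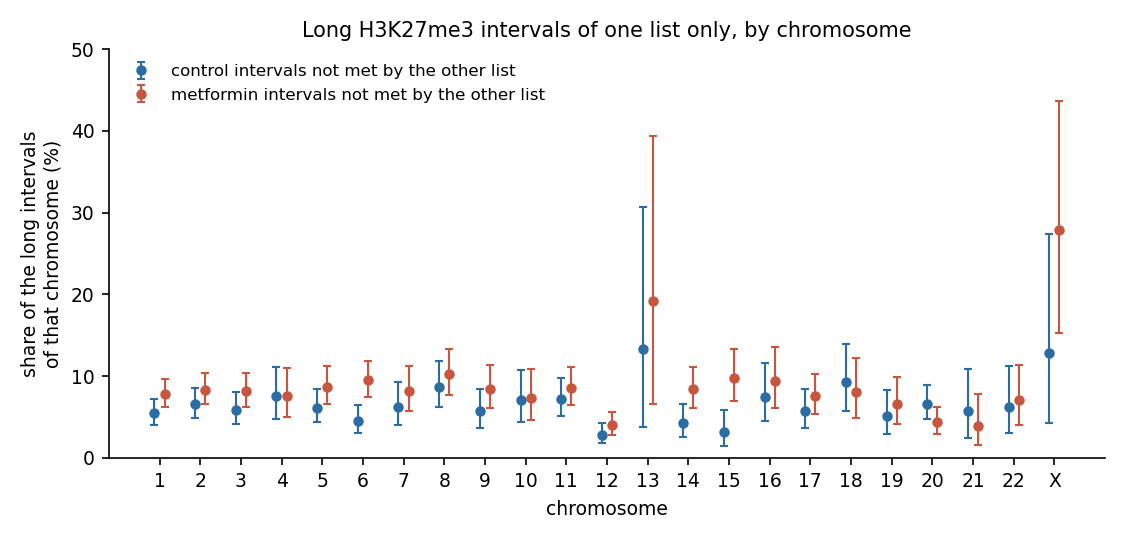
Share (%) of the long H3K27me3 intervals of each chromosome that the other condition's list did not overlap, for control (blue) and metformin (red) intervals; bars are exact 95% intervals for counting error. Metformin stands higher on 20 of 23 chromosomes, chromosome 15 shows the largest ratio of numbers (9 and 35), and chromosomes 13 and X carry wide bars because they hold few long intervals.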

How the data were processed

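Peak lists were made by the authors from 1 library each, per the labels. The submitters' processing notes name Trimmomatic 0.38, Bowtie, MACS2 and the build hg19 (GRCh37). Settings of these tools, and the background used for peak calling, were not given in the sources used here. Every deposited line gives an interval and 1 value, read from the values themselves as a −log10 q, for H3K27me3 an average over the interval. The values are not signal levels. Read depth is unknown. The 2 input libraries were not analysed here.

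Lines sharing an H3K4me3 interval were joined and kept the highest value. Members were H3K27me3 intervals with end minus start of at least 2000 bp and no 1 bp overlap with the other list. Distances are the bases between intervals, and coordinates are 1-based on hg19. Regions were named by rule: per list, the 5 longest members, the 5 farthest from the other list, the 5 with the highest value and the 5 with the most bases under H3K4me3 of their condition. The text marks any other region as named or chosen after its values were seen. The members and lists were chosen with earlier results of these data known. Genes and sequences are not given, because the gene and promoter tables at hand use GRCh38.p14, a different build. Shares carry exact Clopper-Pearson 95% intervals for counting error. On simulated data the code found 100% of overlaps over 85579 and 85952 intervals. Simulated distances were set for a part of these intervals, on their right side, and 100% were recovered. Over all 85579 and 85952 intervals, 0 distances to the other H3K27me3 list or to the own H3K4me3 list differed from bedtools 2.31.1. Python 3.11.15, pandas 2.3.3, numpy 2.4.6, scipy 1.17.1 and matplotlib 3.10.9 were used.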

Additional observations from a re-analysis of the deposited data

How the results depend on the processing

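No paired analysis was possible because each mark and condition has 1 library, and for the same reason no replicate was left out. Values are given as control-only, then metformin-only. The numbers of members (552 and 836) became 1708 and 2276 from 1500 bp upwards, 60 and 117 from 3000 bp, 249 and 416 when an other-list interval within 1 kb counted as shared, 1246 and 1581 with intervals within 1 kb merged first, and 362 and 526 at a value of 1.5 or more. Metformin-only members were the more numerous under each of these and, at 552 and 586, with equal numbers of longest intervals, a setting chosen after seeing the data. Median distances (841.5 and 991.5 bp) became 1250 and 1299 bp with merging, and 897 and 916 bp from 3000 bp upwards. H3K4me3 of the same condition (4.17% and 11.6% within 5 kb) lay within 1 kb of 1.45% and 4.67%, and within 10 kb of 7.79% and 17.9%. At an H3K4me3 value of 5 or more the shares were 2.17% and 8.97%, and for members from 3000 bp 3.33% (2 of 60) and 14.5% (17 of 117). H3K4me3 intervals common to both conditions gave 3.26% and 8.73%, and equal weight for each chromosome 3.22% and 12.2%; both were chosen after seeing the data. The metformin-only share was the higher under each of these settings. Covered length (1.34 and 2.08 Mb) became 0.204 and 0.400 Mb from 3000 bp upwards and 3.29 and 4.21 Mb with merging. Median coverage of the flanks of control-only members (15.6% by the control list, 16.2% by the metformin list) was 17.0% and 16.4% with flanks of 20 kb and 12.5% and 12.9% with 200 kb. For metformin-only members (15.4% by the control list, 16.3% by the metformin list) it was 16.6% and 18.1% with 20 kb and 11.0% and 12.2% with 200 kb. The cause of these shifts was not tested.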
